A study of Mus musculus with 6 samples.

Results

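The genes described are the C-type lectin and killer lectin-like receptors, chosen by name as every gene with a Clec symbol followed by a number or a Klr symbol from Klra to Klrk, with Mrc1, Cd209a and Cd69 added. They made up 59 of 19937 genes measured on 6 mouse arrays, 36 in the Clec group (33 Clec symbols, Mrc1, Cd209a and Cd69) and 23 in the Klr group. The arrays labelled EVI1 (n = 3) came from Lin- hematopoietic progenitors, cells depleted of mature blood lineages, that carried a lentiviral vector for EVI1, a zinc finger transcription factor encoded at the Mecom locus, together with the fluorescent marker EGFP. The arrays labelled EGFP (n = 3) came from such cells with a control vector for EGFP alone. All cells were C57BL6 with the Rosa26rtTA transactivator, which switches on the vectors' Tet promoter under doxycycline. The medium of all held 4 cytokines, namely stem cell factor, Flt3 ligand and interleukin 11 at 50 ng/ml each and interleukin 3 at 20 ng/ml. All were transduced 24 h after isolation and given doxycycline (1 µg/ml) 24 h later. EGFP-expressing cells were sorted 20 h after doxycycline in one description, and RNA was taken 24 h after it in another. The animals' age is not given in the sources used here, nor whether replicates are separate animals or cultures, so p-values measure only the spread between these arrays.

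C-type lectin receptors are membrane proteins with a lectin-like domain. Those of myeloid cells, such as Dectin-1, Dectin-2 and Mincle, bind sugars and lipids of fungi and bacteria and signal through ITAM motifs and the kinase Syk, while relatives such as DCIR carry inhibitory motifs that recruit phosphatases. The killer lectin-like receptors (Ly49, NKR-P1, CD94 and NKG2) sit mostly on natural killer cells, where they read MHC class I, its relatives or Clr proteins on other cells. Many genes of both kinds lie together in the natural killer gene complex on mouse chromosome 6.

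The values are log2 intensities made by RMA, and a difference is EVI1 minus EGFP. A gene is said to rise or fall at a limma adjusted p under 0.05, adjusted over all 19937 genes. Mecom, whose product the vector encodes, did not pass (-0.60 ± 0.26, adjusted p = 0.166), with 6.29, 6.18 and 6.49 in EVI1 arrays and 6.39, 7.53 and 6.86 in EGFP arrays. These values are of the brighter of 2 Mecom probe sets, and those of the other are not given here. Whether the Mecom probes read the vector's sequence was not tested, so the arrays are called by their labels. All 7 markers of progenitors listed (Kit, Cd34, Flt3, Gata2, Hoxa9, Meis1 and Myb) lay above the level that 95 percent of olfactory receptor genes stay under (6.99 in EVI1 arrays and 6.95 in EGFP arrays), called the olfactory level here, and both Mecom means (6.32 in EVI1 arrays and 6.92 in EGFP arrays) lay under it. Of the 7 progenitor markers 5 fell, among them Cd34 (8.49 in EVI1 arrays and 10.95 in EGFP arrays). Over all genes 9.18% fell, and 13.6% of genes with a mean above the olfactory level in at least 1 set of arrays. The array labelled EGFP replicate 2 had an array weight of 0.452, against 0.874 to 1.55 for the others.

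In the Clec group 11 of 36 genes rose and 4 fell, and in the Klr group none of 23 rose and 5 fell (limma). At an unadjusted p under 0.05, 8 of 23 Klr genes passed, all of them lower in EVI1 arrays, as did 17 of 36 Clec genes and 5702 of all 19937 genes. Over all genes 9.06% rose and 9.18% fell, 18.2% together, against 30.6% up and 11.1% down in the Clec group and 21.7% down in the Klr group. Without EVI1 replicate 3 these counts were 7 up and 1 down in the Clec group and 3 down in the Klr group, and without EVI1 replicate 1 they were 7 up and 3 down, and 3 down. Among these calls, 7 rises and 2 falls of Clec genes and 3 falls of Klr genes were at least 2-fold, as were 2.87% (higher) and 3.03% (lower) of all genes. Over the 33 Clec symbols alone 10 rose and 3 fell. The 2 sets of arrays did not overlap for 15 of 36 Clec genes and 7 of 23 Klr genes. The same held for 6504 of all 19937 genes (32.6%). The median log2 difference was 0.09 in the Clec group, -0.21 in the Klr group and 0.01 over all genes. In the Clec group 22 differences were above 0 and 14 below, and in the Klr group 5 were above and 18 below. The mean level over the Clec group was 8.08 ± 0.17 in EVI1 arrays and 7.76 ± 0.19 in EGFP arrays (SD, n = 3 each), and over the Klr group 5.09 ± 0.09 in EVI1 arrays and 5.55 ± 0.15 in EGFP arrays. Array by array the Klr mean was 5.19, 5.01 and 5.08 in EVI1 arrays and 5.72, 5.45 and 5.47 in EGFP arrays, with no overlap. The Clec mean was 8.27, 7.93 and 8.03 in EVI1 arrays and 7.98, 7.64 and 7.66 in EGFP arrays, and replicate 1 of each group was its highest array. No test was made between the 2 groups of genes, since members are not replicates.

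**Figure D1:**
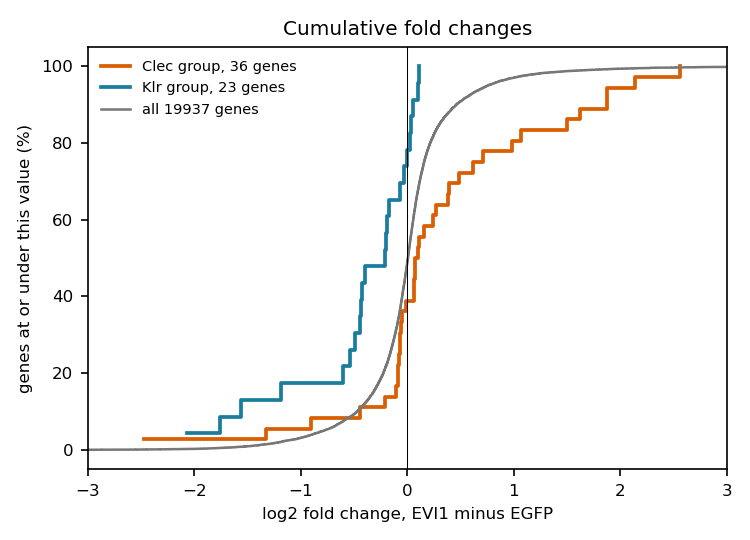
Share of genes (y axis, percent) at or under each log2 difference, EVI1 minus EGFP (x axis), for the Clec group, the Klr group and all 19937 genes. The Klr curve ends at 0.11 and lies left of the curve of all genes, and the Clec curve has a long right arm that ends at 2.56.

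Dim signal limits what can be read of many of these genes, the Klr genes above all. A mean above the olfactory level in at least 1 of the 2 sets of arrays was found for 23 of 36 Clec genes and for 4 of 23 Klr genes (Klrb1f, Klrg2, Klrd1 and Klra2). Clec4a4, Clec1a and Clec2j passed that level only in EVI1 arrays, and Klrd1, Klra2 and Clec11a only in EGFP arrays. Clec4a4, Clec1a, Klrd1 and Klra2 were called and pass only where they are high, so a share of calls over members above that level supports nothing. The calls of Clec10a, Klrk1 and Klri1 rest on means under the olfactory level in both sets of arrays.

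**Figure D2:**
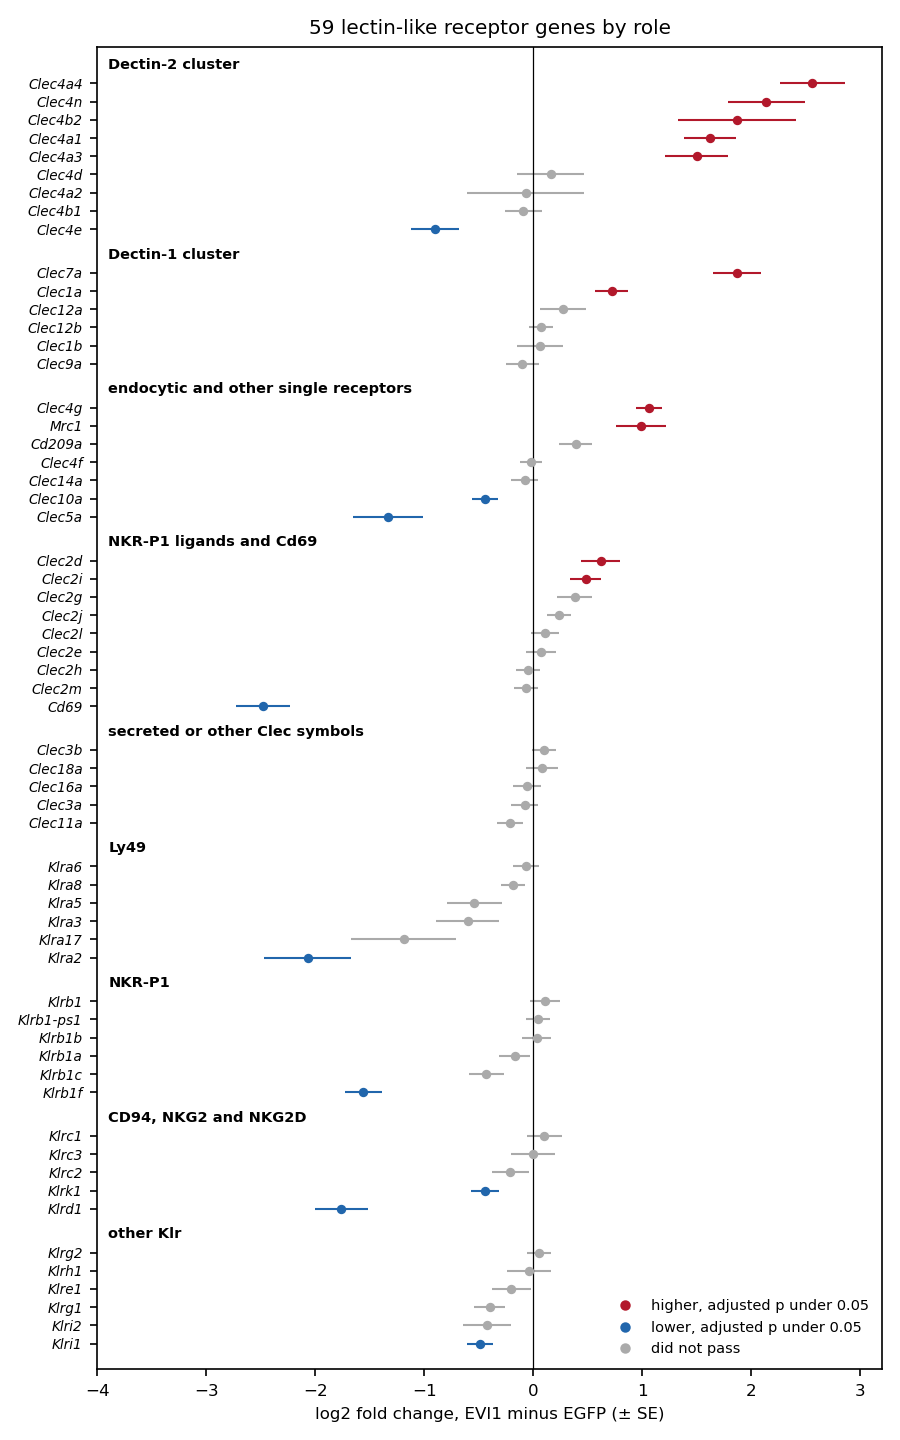
Log2 differences, EVI1 minus EGFP (x axis, points), with their standard errors from limma (bars), for the 59 genes grouped by role (y axis), coloured by whether they rose, fell or did not pass. The 5 rises at the top belong to the Dectin-2 cluster, and no gene of the 4 Klr classes rose.

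The Dectin-2 cluster, a run of myeloid receptor genes, held 5 of the 11 rises. Among its 9 genes there were 5 rises and 1 fall, 3 did not pass, and the median difference was 1.50. Clec4a4 (DCIR2), an inhibitory receptor of a conventional dendritic cell subset, had 7.91, 6.97 and 7.42 in EVI1 arrays and 5.36, 4.33 and 4.93 in EGFP arrays. The sets of arrays did not overlap, and the difference was 2.56 ± 0.30 (SE, adjusted p = 0.000844), 5.91-fold. All EGFP values of Clec4a4 lay under the olfactory level, so the size of its rise is uncertain. Clec4n (Dectin-2), which binds mannans of fungi and signals through the Fc receptor gamma chain, had 11.49, 11.09 and 11.22 in EVI1 arrays and 9.89, 9.22 and 8.26 in EGFP arrays. Every EVI1 value of Clec4n was above every EGFP value, and the EGFP arrays were the more widely spread (2.14 ± 0.35, adjusted p = 0.00435). Clec4a1 (DCIR4), of the DCIR family, had 10.69, 9.89 and 10.47 in EVI1 arrays and 9.14, 8.67 and 8.40 in EGFP arrays (1.62 ± 0.24, adjusted p = 0.00286). Its neighbour Clec4a3 (DCIR3) had 10.81, 10.05 and 10.11 in EVI1 arrays and 9.44, 8.58 and 8.44 in EGFP arrays (1.50 ± 0.29, adjusted p = 0.00912). Neither gene's arrays overlapped between the labels, and replicate 1 was the highest array of each label for both.

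Clec4b2 (DCAR1), an activating receptor that pairs with the Fc receptor gamma chain, had 9.89, 8.47 and 9.16 in EVI1 arrays and 8.52, 6.37 and 7.01 in EGFP arrays. Its arrays overlapped between labels, since EVI1 replicate 2 lay just under EGFP replicate 1. The difference was 1.87 ± 0.54 (adjusted p = 0.0450). That call was lost without EVI1 replicate 1 (0.137), EVI1 replicate 3 (0.140), EGFP replicate 2 (0.0786) or EGFP replicate 3 (0.140). Clec4e (Mincle), the receptor for the mycobacterial cord factor, was the only gene of the cluster that fell. It had 11.50, 10.87 and 10.78 in EVI1 arrays and 12.05, 12.19 and 11.61 in EGFP arrays, without overlap (-0.90 ± 0.22, adjusted p = 0.0231). The Clec4e call was lost without EVI1 replicate 2 (0.0848), EVI1 replicate 3 (0.102) or EGFP replicate 1 (0.0678). Clec4d (MCL), which forms complexes with Mincle, had 10.44, 9.45 and 9.66 in EVI1 arrays and 10.09, 9.86 and 9.13 in EGFP arrays and did not pass (0.16 ± 0.31, adjusted p = 0.833).

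Clec4a2 (DCIR1), an inhibitory receptor, had 9.31, 7.95 and 7.95 in EVI1 arrays and 9.66, 7.64 and 8.12 in EGFP arrays. Here replicate 1 stood well above the other arrays under both labels, and the difference did not pass (-0.07 ± 0.54, adjusted p = 0.963). The ninth gene, Clec4b1, lay under the olfactory level under both labels. Clec4a1 to Clec4a4 and Clec4b1 and Clec4b2 are close paralogs, and cross-hybridisation between them was not tested.

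**Figure D3:**
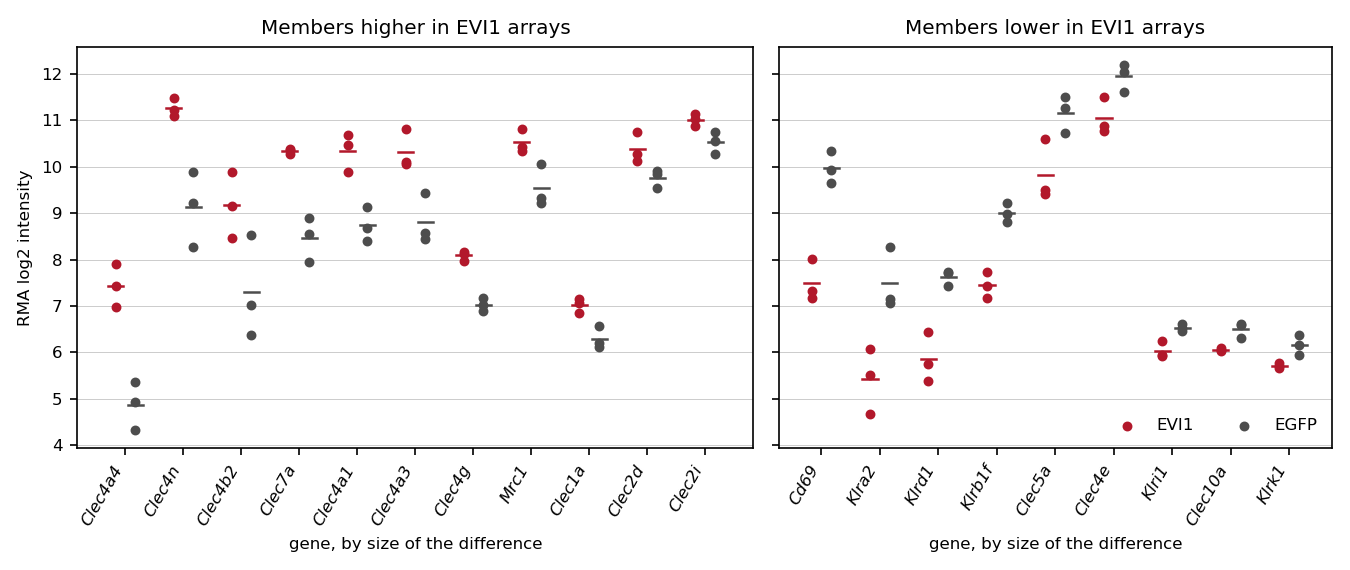
RMA log2 intensity (y axis) of the 20 genes that rose or fell (x axis, by size of the difference), one point per array, EVI1 left of EGFP within each gene, with a line at the mean of 3 arrays. The sets of points are apart for all but Clec4b2. These genes were picked by the test on the same arrays, and 32.6% of all genes have sets that do not overlap.

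Of the 6 genes of the Dectin-1 cluster 2 rose, none fell and 4 did not pass. Clec7a (Dectin-1), the receptor for fungal beta-glucan, had 10.28, 10.36 and 10.39 in EVI1 arrays and 8.56, 8.90 and 7.94 in EGFP arrays. The EVI1 values of Clec7a were close together (SD 0.06) and above all EGFP values, a difference of 1.87 ± 0.22 (adjusted p = 0.000896), 3.66-fold. Clec1a, a receptor for fungal melanin, had 7.06, 7.14 and 6.84 in EVI1 arrays and 6.20, 6.56 and 6.12 in EGFP arrays (0.72 ± 0.15, adjusted p = 0.0117). Its EGFP mean lay under the olfactory level and its EVI1 mean (7.01) just above it. Clec12a (MICL), an inhibitory receptor of myeloid cells and their progenitors, had 10.85, 10.29 and 10.59 in EVI1 arrays and 10.75, 10.02 and 10.15 in EGFP arrays and did not pass (0.27 ± 0.21, adjusted p = 0.509). Clec1b (CLEC-2, the podoplanin receptor of platelets), Clec9a (DNGR-1, a dead cell receptor of dendritic cells) and Clec12b stayed under the olfactory level under both labels.

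Promoters of 5 genes that rose or fell are shown because PU.1, the ETS factor of myeloid cells, is a general regulator of such genes, and the letters of its core, GAGGAA, could be searched for. All 5 are among the 8 of 14 called genes with a promoter that hold a match. They do not stand for called genes as a whole. Each runs from 250 bases before to 50 bases after the gene's start in RefSeq on GRCm38.p6, 5′ to 3′ on the gene's own strand, with matches to GAGGAA on either strand in capitals. The genes are Clec4a1 (chr6:122921598-122921897, plus strand), Clec4b2 (chr6:123172773-123173072, plus strand), Clec7a (chr6:129472730-129473029, minus strand), Clec4e (chr6:123289822-123290121, minus strand) and Klra2 (chr6:131247313-131247612, minus strand), of which the first 3 rose and the last 2 fell.
Clec4a1: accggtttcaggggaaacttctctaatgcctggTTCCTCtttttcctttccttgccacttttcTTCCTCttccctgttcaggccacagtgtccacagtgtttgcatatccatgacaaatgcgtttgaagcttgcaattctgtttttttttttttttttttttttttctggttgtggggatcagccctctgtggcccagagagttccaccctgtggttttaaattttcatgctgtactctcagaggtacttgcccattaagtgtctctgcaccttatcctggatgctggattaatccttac
Clec4b2: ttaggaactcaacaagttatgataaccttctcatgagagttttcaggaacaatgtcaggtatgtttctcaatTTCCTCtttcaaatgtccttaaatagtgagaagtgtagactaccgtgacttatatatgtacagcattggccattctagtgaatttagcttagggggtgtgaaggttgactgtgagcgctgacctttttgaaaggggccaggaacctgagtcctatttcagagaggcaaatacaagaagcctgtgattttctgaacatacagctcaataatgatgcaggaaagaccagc
Clec7a: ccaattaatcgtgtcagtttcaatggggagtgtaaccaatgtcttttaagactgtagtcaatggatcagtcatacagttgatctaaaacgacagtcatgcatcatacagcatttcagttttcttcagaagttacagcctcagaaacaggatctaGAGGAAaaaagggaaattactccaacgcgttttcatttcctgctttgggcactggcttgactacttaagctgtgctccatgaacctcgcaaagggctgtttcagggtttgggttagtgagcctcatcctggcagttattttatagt
Clec4e: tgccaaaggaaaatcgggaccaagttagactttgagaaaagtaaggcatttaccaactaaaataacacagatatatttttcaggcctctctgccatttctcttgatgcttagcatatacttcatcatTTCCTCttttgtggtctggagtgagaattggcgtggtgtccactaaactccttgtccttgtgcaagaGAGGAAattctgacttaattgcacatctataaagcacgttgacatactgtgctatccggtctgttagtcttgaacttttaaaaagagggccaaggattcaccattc
Klra2: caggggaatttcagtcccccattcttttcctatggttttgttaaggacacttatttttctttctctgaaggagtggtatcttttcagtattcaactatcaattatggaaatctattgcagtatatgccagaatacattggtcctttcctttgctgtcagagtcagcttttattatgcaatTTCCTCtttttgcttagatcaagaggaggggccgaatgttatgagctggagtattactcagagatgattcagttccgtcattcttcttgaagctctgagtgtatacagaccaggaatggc
The matches begin 217 and 187 bases before the start in Clec4a1, 178 before it in Clec4b2, 96 before it in Clec7a, 123 and 56 before it in Clec4e, and 70 before it in Klra2. Promoters of 47 of the 59 genes were in the table, taking the first entry of each gene. GAGGAA was found in 27 of these 47 (57.4%) and in 28.3% of 27025 promoters of all genes. It was found in 8 of 14 called genes and 19 of 33 others, and in 15 of 28 Clec and 12 of 19 Klr genes, so called and uncalled genes had like shares. GATAAG, the GATA core that also forms part of the EVI1 zinc finger motif, was found in 6 of 47 (12.8%) against 7.43% of all, among them Clec4a1 and Clec2i. The interferon response core (GAAA, any 2 bases, GAAA) was found in 3 of 47 (6.38%), Clec2d, Clec4b1 and Clec4d, against 3.49% of all. A GAGGAA match and an interferon core match can share bases. Clec4a4 and Clec4n, the steepest rises of the Dectin-2 cluster, are not among the 47. For the other 7 genes of the cluster, the 21 pairs of promoters had 56.0% to 61.7% identical bases after global alignment (median 58.3%), against a median of 58.7% for 133 pairs of a Dectin-2 cluster promoter with a Klr promoter.

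Receptors outside these clusters went both ways. Of 7 endocytic and other single receptors 2 rose, 2 fell and 3 did not pass. Mrc1, the mannose receptor of macrophages, had 10.81, 10.42 and 10.35 in EVI1 arrays and 10.07, 9.33 and 9.22 in EGFP arrays. All EVI1 values of Mrc1 were higher (0.99 ± 0.23, adjusted p = 0.0199), and the call was lost without EVI1 replicate 1 (0.0683), EVI1 replicate 3 (0.0549) or EGFP replicate 3 (0.0746). Clec4g (LSECtin), a lectin of liver sinusoidal endothelium, had 8.17, 7.97 and 8.13 in EVI1 arrays and 6.89, 7.02 and 7.17 in EGFP arrays (1.06 ± 0.12, adjusted p = 0.000689). A second Clec4g probe set had 5.92, 6.09 and 6.27 in EVI1 arrays and 6.07, 5.84 and 5.72 in EGFP arrays, a difference of 0.22 (two-sided exact permutation p = 0.2, with 0.1 the lowest this design allows), and the mean of both gave 0.64 for the gene. The second probe set lay wholly under the olfactory level, so it gives no size to set beside the rise of the first.

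Clec5a (MDL-1), which signals through the adaptor DAP12, had 10.59, 9.41 and 9.50 in EVI1 arrays and 11.51, 10.72 and 11.26 in EGFP arrays. Its arrays did not overlap between labels, and it fell by 1.33 ± 0.32 (adjusted p = 0.0234). The Clec5a call was lost without EVI1 replicate 2 (0.0839), EVI1 replicate 3 (0.108), EGFP replicate 1 (0.0727) or EGFP replicate 3 (0.0819). Clec10a (MGL1), a galactose-type lectin of macrophages, had 6.10, 6.04 and 6.03 in EVI1 arrays and 6.58, 6.62 and 6.30 in EGFP arrays (-0.44 ± 0.12, adjusted p = 0.0329). Its call was lost without any 1 of the EVI1 arrays, EGFP replicate 1 or EGFP replicate 2 (adjusted p = 0.0658 to 0.104). Clec4f, the Kupffer cell receptor, had 6.97, 7.03 and 7.08 in EVI1 arrays and 7.01, 6.98 and 7.14 in EGFP arrays and did not pass (-0.02 ± 0.10, adjusted p = 0.950). Cd209a, a DC-SIGN homolog, and Clec14a, an endothelial protein, stayed under the olfactory level and did not pass. Of the 5 genes of secreted or other Clec symbols none rose or fell by limma, and none had an unadjusted p under 0.05. Clec11a, a growth factor of bone and blood progenitors, had 6.94, 6.86 and 7.15 in EVI1 arrays and 7.10, 7.33 and 7.14 in EGFP arrays (-0.21 ± 0.12). Clec16a, an endosomal protein rather than a surface receptor, had 8.65, 8.34 and 8.42 in EVI1 arrays and 8.70, 8.42 and 8.47 in EGFP arrays (-0.06 ± 0.13). Clec18a had 7.95, 7.71 and 7.90 in EVI1 arrays and 7.70, 7.58 and 8.06 in EGFP arrays (0.08 ± 0.15). The remaining 2 are Clec3a and Clec3b.

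Cd69 had the steepest fall of all 59 genes. It encodes an early activation antigen that holds leukocytes in tissues, and it lies next to the Clr genes. Its values were 8.02, 7.33 and 7.16 in EVI1 arrays and 10.35, 9.66 and 9.92 in EGFP arrays. No EVI1 value came near an EGFP value, and the difference was -2.48 ± 0.25 (adjusted p = 0.000495), a 5.56-fold fall. The Clec2 genes, among them those of the Clr proteins, ligands of NKR-P1 receptors, did not fall with it. Of 8 Clec2 genes 2 rose and 6 did not pass. Clec2d (Clr-b), the ligand of the inhibitory receptor NKR-P1B, had 10.75, 10.12 and 10.27 in EVI1 arrays and 9.91, 9.85 and 9.54 in EGFP arrays (0.62 ± 0.18, adjusted p = 0.0493). Clec2i (Clr-g), a ligand of NKR-P1F, had 11.13, 11.03 and 10.88 in EVI1 arrays and 10.75, 10.28 and 10.56 in EGFP arrays (0.48 ± 0.14, adjusted p = 0.0486). Both were higher in every EVI1 array than in any EGFP array, but each call was lost without any 1 of 5 of the 6 arrays, all but EVI1 replicate 2 for Clec2d (0.0527 to 0.162) and all but EGFP replicate 1 for Clec2i (0.0799 to 0.159). With limma's trended and robust variance both calls were lost (0.0530 for Clec2d and 0.0549 for Clec2i), and the Clec2i call also after a further quantile normalisation (0.0717). Clec2g had 8.14, 7.79 and 7.61 in EVI1 arrays and 7.69, 7.38 and 7.35 in EGFP arrays and did not pass (0.38 ± 0.16, adjusted p = 0.169), but rose with a replicate block (adjusted p = 0.0380), a fit in which 21.9% of all genes were called. The pseudogene Clec2j had 7.15, 6.89 and 7.12 in EVI1 arrays and 6.88, 6.79 and 6.76 in EGFP arrays and did not pass (0.24 ± 0.11, adjusted p = 0.200), although its arrays did not overlap. Clec2e, Clec2h, Clec2l and Clec2m did not pass either.

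Of the 5 killer lectin-like receptors that fell, 2 were of the CD94, NKG2 and NKG2D class, 1 of the Ly49 class and 1 of the NKR-P1 class. The other was 1 of the remaining Klr genes, which make up the last of the 4 classes. Klrb1f (NKR-P1F), the receptor for Clr-g, had 7.74, 7.42 and 7.17 in EVI1 arrays and 9.22, 8.81 and 8.98 in EGFP arrays. It was the only Klr gene called with means above the olfactory level under both labels, and its difference was -1.56 ± 0.17 (adjusted p = 0.000694), a 2.95-fold fall. Klra2 (Ly49B), a Ly49 receptor found on myeloid cells rather than natural killer cells, had 6.07, 5.50 and 4.68 in EVI1 arrays and 8.26, 7.14 and 7.06 in EGFP arrays (-2.07 ± 0.40, adjusted p = 0.00909). Klrd1 (CD94), the partner chain of NKG2 receptors, had 6.43, 5.39 and 5.75 in EVI1 arrays and 7.73, 7.42 and 7.72 in EGFP arrays (-1.76 ± 0.24, adjusted p = 0.00193). For Klra2 and Klrd1 all EVI1 values lay below all EGFP values and under the olfactory level, so the sizes of their falls are uncertain.

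Klri1, a receptor that pairs with KLRE1, had 5.94, 6.25 and 5.92 in EVI1 arrays and 6.53, 6.60 and 6.45 in EGFP arrays (-0.49 ± 0.12, adjusted p = 0.0275). Klrk1 (NKG2D), an activating receptor for stress-induced ligands, had 5.77, 5.71 and 5.66 in EVI1 arrays and 6.16, 6.37 and 5.94 in EGFP arrays (-0.44 ± 0.13, adjusted p = 0.0490). Both falls were small, without overlap, and both lay wholly under the olfactory level. The Klri1 call was lost without any 1 array but EVI1 replicate 2 (0.0514 to 0.104), and the Klrk1 call without any 1 array but EGFP replicate 3 (0.0930 to 0.150), after centring the arrays, after a further quantile normalisation and with array weights. With a replicate block 2 more Klr genes fell. Klra17 (Ly49Q), a receptor of plasmacytoid dendritic cells and other myeloid cells, had 5.31, 4.37 and 4.62 in EVI1 arrays and 6.86, 4.80 and 6.20 in EGFP arrays (-1.19 ± 0.48, adjusted p = 0.141, and 0.0137 with the block). Its EGFP replicate 2 stood apart from the other EGFP arrays, and without it Klra17 fell by 1.76 (adjusted p = 0.00375). Klrb1c (NK1.1), the classical natural killer marker of this strain, had 4.70, 4.76 and 5.13 in EVI1 arrays and 5.33, 5.05 and 5.50 in EGFP arrays (-0.43 ± 0.16, adjusted p = 0.113, and 0.0332 with the block). Without EGFP replicate 2 the Klrb1c call was also made (0.0383). With array weights both Klra17 (0.0358) and Klrb1c (0.0266) were called.

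The NKG2 chains Klrc1, Klrc2 and Klrc3, the partners of CD94, lay under the olfactory level and did not pass, with differences of 0.10, -0.21 and 0.00. Klrg2 had 7.26, 7.18 and 7.20 in EVI1 arrays and 7.27, 7.03 and 7.19 in EGFP arrays (0.05 ± 0.11, adjusted p = 0.843). The remaining 12 Klr genes that did not pass were Klra3, Klra5, Klra6 and Klra8 of the Ly49 class, Klrb1, Klrb1a, Klrb1b and the pseudogene Klrb1-ps1, and Klre1, Klrg1, Klri2 and Klrh1. All of them lay under the olfactory level, where neither presence nor absence of the transcript can be read from these arrays. Ly49 genes are near-identical copies, and their cross-hybridisation was not tested.

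Along chromosome 6, which holds 49 of the 59 genes, rises and falls lay side by side. In the RefSeq order, Clec4a1, Clec4a3 and Clec4a4 follow each other and rose, Clec4b1 and Clec4a2 did not pass, Clec4b2 and Clec4n rose, Clec4d did not pass and Clec4e fell. Further on, Clec2d, which rose by 0.62, is followed by Cd69, which fell by 2.48, and Clec1a and Clec7a (0.72 and 1.87) are followed after Klre1 by Klrd1 and Klrk1 (-1.76 and -0.44).

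**Figure D4:**
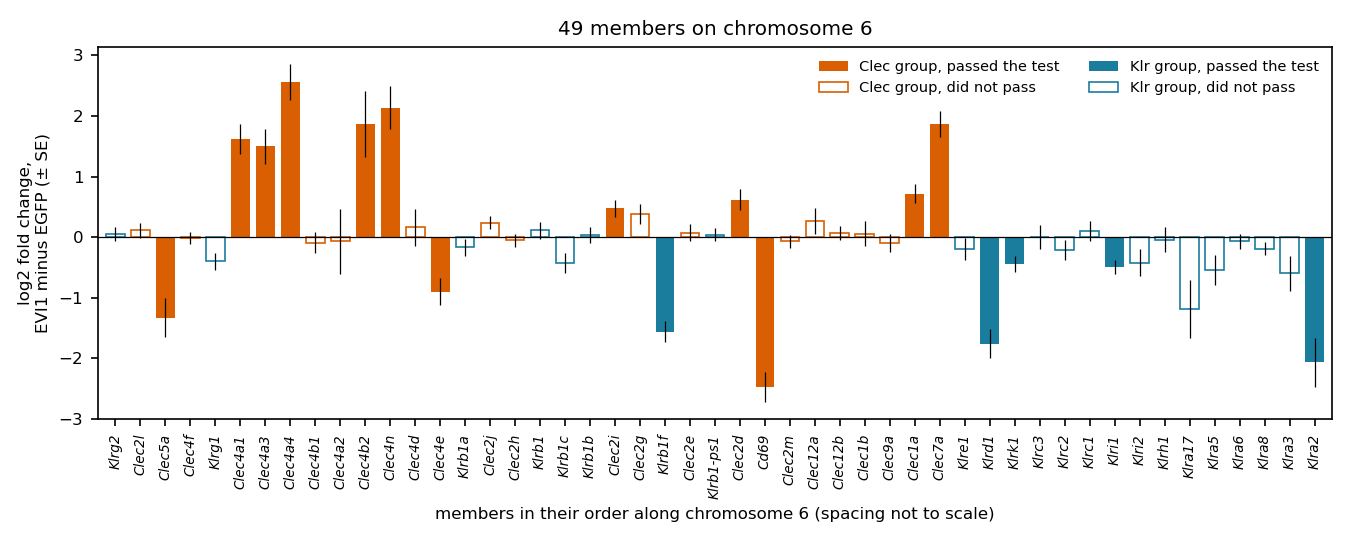
Log2 differences, EVI1 minus EGFP (bars, y axis), with standard errors, for 49 genes in their order along mouse chromosome 6 (x axis, not to scale), filled where the test was passed. The Dectin-2 cluster stands out on the left with 5 rises, and the Klr genes at the right end (Klre1 to Klra2) lie between 0.10 and -2.07.

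Shared signalling partners of these receptors went both ways. Among 26 measured members of ITAM and CARD9 signalling there were 3 rises and 4 falls, the other 19 did not pass, and the median was 0.08 (26.9% called, against 18.2% of all genes). Of the 26, 24 had a mean above the olfactory level in at least 1 set of arrays. Of all 13029 such genes 26.8% were called, a share near that of the list. Phospholipase C gamma 2 (Plcg2, 0.52 ± 0.10), protein kinase C delta (Prkcd, 0.58 ± 0.15) and Bcl10 (0.72 ± 0.20) rose, while the adaptors Lcp2 (-1.18 ± 0.15), Lat (-1.39 ± 0.19) and Lat2 (-0.69 ± 0.18) and the kinase subunit Pik3r1 (-0.61 ± 0.10) fell. The adaptor DAP12 (Tyrobp), which serves Clec5a, NKG2D and activating Ly49 receptors, had 12.89, 12.83 and 12.66 in EVI1 arrays and 12.47, 12.39 and 11.89 in EGFP arrays and did not pass (adjusted p = 0.0575), but rose with a replicate block (0.0169). The Fc receptor gamma chain (Fcer1g), which serves Dectin-2 and Mincle, had 12.67, 12.35 and 12.31 in EVI1 arrays and 12.52, 11.88 and 12.29 in EGFP arrays and did not pass (0.21 ± 0.18, adjusted p = 0.531). Syk (0.10 ± 0.14) and Card9 (0.05 ± 0.10) did not pass. With a replicate block 5 of the 26 rose and 7 fell, with Cd247 added to the rises beside Tyrobp, and Hcst (DAP10), Plcg1 and Vav3 to the falls. Among 4 phosphatases of inhibitory receptors Ptpn6 (SHP-1, 0.81 ± 0.13) and Inppl1 (SHIP2, 0.97 ± 0.11) rose and Ptpn11 (SHP-2) fell by 0.45 ± 0.10. Only 5 of 14 listed ligands of killer lectin-like receptors were measured under those symbols, of which E-cadherin (Cdh1, a ligand of KLRG1) rose by 1.41 ± 0.18 and N-cadherin (Cdh2) fell by 0.65 ± 0.18 with both means under the olfactory level. The ligand H60b (-0.74, adjusted p = 0.202) fell only with the block (0.00698).

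Marker genes of cells that carry these receptors rose in part and fell in part. In bulk cells, fewer cells of a type and less RNA per cell cannot be told apart. Values beside gene names are log2 differences, and those beside changes with a block are adjusted p-values of limma. Over all genes 18.2% were called, and 26.8% of those with a mean above the olfactory level in at least 1 set of arrays. The share called was 31.2% for natural killer, 27.3% for T cell, 53.3% for dendritic cell and 53.8% for macrophage and monocyte markers. Of 16 natural killer cell markers 4 fell (Sh2d1b1 at -3.47, Nkg7 at -3.06, Cd244a at -1.59 and Gzmb at -1.24), 1 rose (Cd7 at 0.65) and 11 did not pass. The median difference of the list was 0.00, with 8 differences above 0 and 8 below. Its summed log2 intensity was 115.9 to 119.6 in EVI1 arrays and 126.3 to 128.4 in EGFP arrays. The defining genes Ncr1 (4.98 in EVI1 arrays and 4.95 in EGFP arrays), Eomes (6.35 and 6.51) and Tbx21 (6.92 and 6.83) lay under the olfactory level under both labels and did not pass. Of 11 T cell markers 2 fell (Tespa1 at -2.90 and Cd3g at -1.28), 1 rose (Thy1 at 0.69) and 8 did not pass. Their sums were 76.4 to 77.2 in EVI1 arrays and 78.8 to 80.9 in EGFP arrays. The median difference of this list was 0.04, with 7 differences above 0 and 4 below, so the lower sum rests on Tespa1 and Cd3g. Of 15 dendritic cell markers 6 fell, 2 rose and 7 did not pass, with sums of 121.7 to 125.1 in EVI1 arrays and 126.2 to 133.2 in EGFP arrays. The falls were led by Flt3 (-1.52), Ccr7 (-1.22) and Itgax (-1.19), and Bst2 (0.95) and Ccr9 (0.82) rose. Flt3 was also counted among the progenitor markers, so its fall is not particular to dendritic cells. With the block Cd74 rose too (0.00299), H2-Aa fell (0.0314) and Batf3 no longer did (0.0529). Of 13 macrophage and monocyte markers 3 rose (Mertk at 2.91, Mpeg1 at 1.21 and Cd68 at 1.16), 4 fell (Ccr2 at -2.36, Msr1 at -1.94, Csf1r at -1.16 and Cd14 at -0.85) and 6 did not pass, with sums of 112.9 to 118.3 in EVI1 arrays and 114.7 to 120.4 in EGFP arrays. With the block 6 of them fell, with Adgre1 (0.00233) and Fcgr1 (0.0444) added. The part of these cell types in the rises of the Clec genes and the falls of the Klr genes was not tested.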

How the data were processed

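Gene expression was measured on 6 single-colour arrays, 3 per label. The deposited values are log2 intensities that the authors made by RMA, per the submitters' processing notes; its version is not given in the sources used here. Precision is limited by the number of arrays. Of 34760 probe sets, 21640 had exactly 1 symbol in the probe annotation, 1321 several and 11799 none; the brightest probe set over 6 arrays stood for a gene. The labels were compared by lmFit and eBayes of limma (3.58.1, R 4.3.3), two-sided, with Benjamini-Hochberg adjustment over all genes; the code was tested on simulated data. Members and lists were chosen with earlier results of these data known. Named with values in all 6 arrays were the called members, those called only with a replicate block and those whose mean over 6 arrays was above the median or the olfactory level, with Clec2j added after its values were seen. The deviations of same-numbered arrays correlated at r = 0.491, 0.269 and 0.197 for replicates 1, 2 and 3, but the labels do not say what a number marks. The main fit therefore held no pairing. A fit with a block on the numbers was an alternative, given where it changes a call. Alternatives were leaving out each array, the block, 2 scalings, 2 filters on dim genes, the mean of probe sets, another variance model and array weights.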

Additional observations from a re-analysis of the deposited data

How the results depend on the processing

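Of the 20 called genes 11 kept their call in every one of the 14 alternatives that could test them, 9 lost it in at least 1, and none changed direction. Without 1 array the counts were 8 to 11 for the Clec group, 3 to 5 for the Klr group and 2289 to 4098 for all genes, and the medians were 0.06 to 0.18 (Clec) and -0.32 to -0.19 (Klr). Filters on dim genes leave fewer Klr genes. At the 25th percentile 2 of 3 were called (Klrb1f and Klrd1, not Klrg2), with a median of -1.56. At the median level 1 of 1 was called (Klrb1f, -1.56). Over all genes 3707 of 14953 and 3304 of 9969 were called under these filters. Klrd1 (mean 5.86 in EVI1 arrays and 7.62 in EGFP arrays) passed the 25th percentile through the EGFP arrays, where it is high. The share of 2 of 3 therefore supports nothing. The Clec median at the median level was 0.43 over 18 genes. Counting only genes above the olfactory level, an alternative chosen after seeing the data, gave 3 of 4 Klr genes, of which Klrd1 and Klra2 pass only through the EGFP arrays where they are high, so this share supports nothing. With trended and robust variance 12 Clec genes were called (8 up), without Clec4b2 (0.0550), Clec2d and Clec2i. With the replicate block 16 Clec and 7 Klr genes were called; among members it changed only the calls of Clec2g, Klra17 and Klrb1c. Single genes were followed through the alternatives for 31 members only, those of the naming rule without Clec2j. Among these, uncalled genes whose sign turned, with the cause not tested, were Clec4a2 (-0.53 to 0.52 without 1 array, 0.00 with array weights), Clec4d (-0.14 to 0.36), Clec4f (-0.05 to 0.03), Clec16a (-0.15 to 0.02), Clec18a (-0.03 to 0.21, -0.01 with array weights) and Klrg2 (-0.02 to 0.11). Signal near background limits the Klr genes most, and with 3 arrays per label small differences can be missed.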

Other observations

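Ly49 probe sets that carry several symbols were left out of the comparison and also had low signal. A probe set shared by 7 Ly49 symbols had 4.48, 4.21 and 4.56 in EVI1 arrays and 4.73, 5.10 and 4.97 in EGFP arrays, while another shared by 5 had 4.30, 4.15 and 4.33 in EVI1 arrays and 4.55, 5.52 and 4.38 in EGFP arrays. Both had every EVI1 array below every EGFP array (differences of -0.52 and -0.56, exact two-sided permutation p = 0.1 each, the smallest possible). The probe sets shared by 6 and by 3 symbols differed by -0.10 and -0.20 (exact p = 0.6 and 0.3). All 4 lay under the olfactory level.

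The neutrophil and mast cell lists also differed between the labels. Of 10 mast cell and basophil markers there were 8 falls and no rise, and 2 did not pass. That is 80% called, against 18.2% of all genes and 26.8% of genes above the olfactory level in at least 1 set of arrays. Their summed log2 intensities were 86.3 to 88.0 in EVI1 arrays and 99.5 to 105.5 in EGFP arrays. Of 12 neutrophil markers 4 fell, 2 rose and 6 did not pass (50% called). Their sums were 103.4 to 111.1 in EVI1 arrays and 114.4 to 122.6 in EGFP arrays. With a replicate block 7 of the 12 fell, with S100a9 (adjusted p = 0.0298), Ltf (0.0295) and Cxcr2 (0.0495) added by limma.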
